A study of Homo sapiens with 24 samples.

Results

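The biliary and progenitor marker genes described here are KRT7, KRT19, KRT23, SOX9, EPCAM, PROM1, SPP1, CD24 and CFTR, chosen by name as markers of bile duct cells and of the immature liver cells that share their genes. Every probe whose RefSeq transcript belongs to 1 of these 9 genes was taken, which gave 10 probes among the 50683 on the array and 9 of the 20503 genes with a symbol. They were measured in HepaRG cells, a human liver tumour line whose cells can mature toward hepatocytes or toward bile duct cells, on 24 one-colour Agilent microarrays, 3 for each of 8 conditions. The experiment asked what the ligand Wnt3a changes in these cells, which of its effects need β-catenin, and what happens when Wnt ligands are bound outside the cell. Cells labelled NT were neither transfected nor treated. Cells labelled siCTRL received a non-targeting control siRNA, and cells labelled siCTNNB1 an siRNA against β-catenin. Each siRNA was electroporated at 80 pmol into suspended cells taken from a sparse culture. Cells labelled FZ8CRD were not transfected and received 300 ng/ml of mouse FZD8_CRD, the soluble ligand-binding domain of the receptor Frizzled-8. Each of these 4 cultures was also kept with 200 ng/ml of mouse Wnt3a, which gave NT-WNT3A, siCTRL-WNT3A, siCTNNB1-WNT3A and FZ8CRD-WNT3A. Treatment lasted 72 h in serum-free medium. The study's text gives these doses in nM, and the labels' values in ng/ml are used here. HepaRG is 1 established line, and its state in culture is not that of a bile duct.

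Hepatocytes and cholangiocytes, the cells that line bile ducts, arise from a common progenitor, the hepatoblast. Cholangiocytes keep the keratins KRT7, KRT19 and KRT23, the transcription factor SOX9, the secreted phosphoprotein osteopontin (SPP1) and the chloride channel CFTR, and the surface proteins EPCAM, PROM1 and CD24 mark progenitor cells in injured liver. Wnt ligands bind Frizzled receptors and stabilise β-catenin, which enters the nucleus and works with TCF and LEF factors to switch on target genes.

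Signal is given as the log2 of a probe's background-subtracted intensity over the 75th percentile of its array, so that 0 is the 75th percentile and 1 unit is a doubling. The detection limit lay at -6.13, which is 1.43% of the 75th percentile, and lower values were set to it. The 75th percentile itself ranged from 643 to 934 intensity units, and between 58.3% and 66.5% of the spots on an array were well above background. The 8 arrays of 1 replicate number shared a slide and were scanned together, and each condition kept its position on all 3 slides, with Wnt3a in the second row. Position on the slide and condition therefore cannot be told apart. The mean of each condition was then taken away. What was left correlated between 2 arrays of a slide with a mean r of 0.38, and across slides with a mean r of -0.23. By construction, what was left sums to 0 over the 3 arrays of a condition, which in itself pushes the r across slides below 0. The number of arrays limits the precision of every value, and values in a list below follow replicates 1, 2 and 3.

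Of the 9 genes, 6 were tested, because in some condition their probe stood well above background in each of the 3 replicates. KRT7, KRT19, SOX9, SPP1 and CD24 were well above background on 24 of 24 arrays. CFTR, read from 10 spots per array, was well above background on 14 of 24. KRT23, a type I keratin, has 2 probes, and neither was well above background on any of the 24 arrays, with highest readings of 1.85% and 0.766% of the 75th percentile. PROM1, the surface protein also called CD133, was well above background on 0 of 24 arrays, and its highest reading was 1.06%. EPCAM, an epithelial adhesion protein, was well above background on 1 of 24 arrays. That array was replicate 1 of the NT cells, where EPCAM read 13.7% of the 75th percentile (101 intensity units, -2.87 on the log2 scale). The next highest EPCAM reading was 1.01%, and 10 of the 24 readings were at or below 0. KRT23, PROM1 and EPCAM were therefore not tested, and nearly all of their readings were below the detection limit. The exceptions were the EPCAM reading and the KRT23 reading of 1.85%, from the same array.

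**Figure D1:**
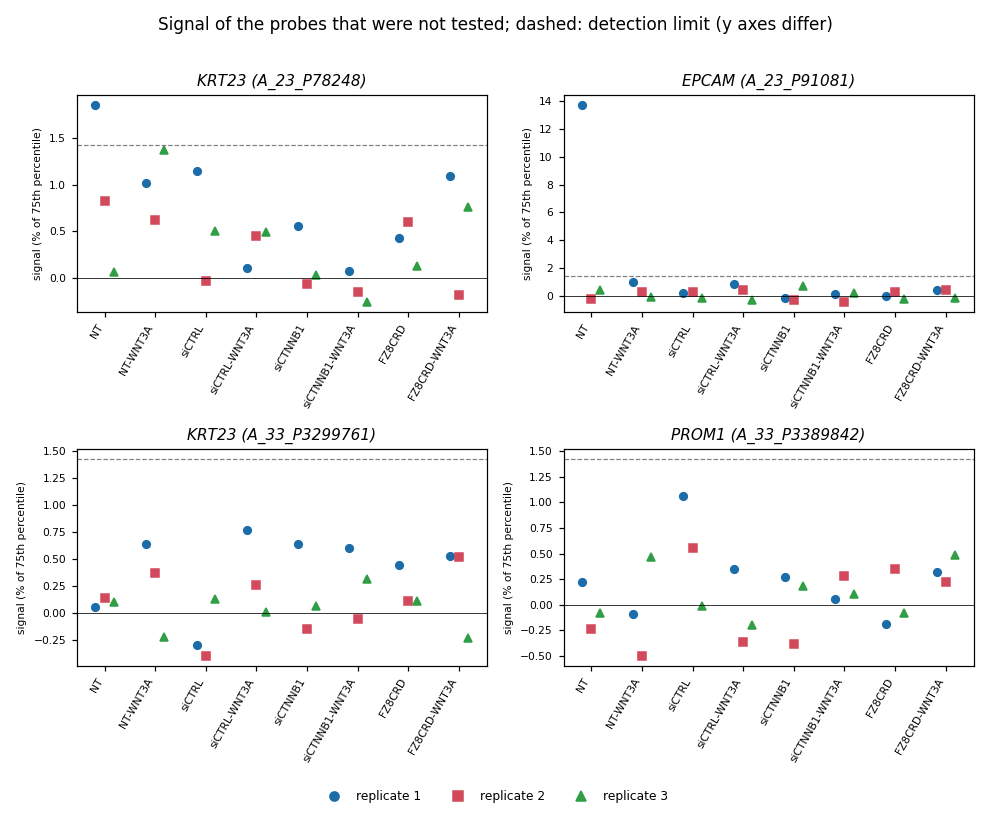
Signal of the KRT23, EPCAM and PROM1 probes as a percent of the 75th percentile of the array, for 24 arrays in 8 conditions, with replicates by colour and shape and the detection limit of 1.43% as a dashed line. One EPCAM reading, replicate 1 of NT at 13.7%, stood apart, and 1 KRT23 reading in the same array reached 1.85%.

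The knockdown and the ligand were checked on other genes. CTNNB1, the gene for β-catenin, read between 0.26 and 0.52 on the log2 scale in the 3 siCTNNB1 arrays and between 0.33 and 0.77 in the 3 siCTNNB1-WNT3A arrays. In the 18 other arrays it read between 3.23 and 4.11, with no overlap. Its log2 change against control siRNA was -3.03 (adjusted p = 1.15e-09). Of 10 feedback genes that Wnt signaling is known to switch on, 9 were tested, and 4 rose with Wnt3a in untransfected cells, namely LEF1 by 1.12, RNF43 by 0.73, TCF7 by 1.68 and AXIN2 by 0.37 on the log2 scale, with 0 lower, beside 5.6% of all genes called. The AXIN2 change was -0.02 when arrays were scaled to the spike-in probes. After β-catenin siRNA in the presence of Wnt3a, 6 of the 9 fell, among them RNF43 by -1.89 and TCF7 by -2.08, and 0 rose, beside 10.6% of all genes called. NKD1 is 1 of these 6 and passed the filter only through siCTRL-WNT3A, so that its call was built in, and of the other 8 genes 5 fell.

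A gene was called changed at an adjusted p under 0.05 over all 24643 genes tested. In untransfected cells Wnt3a called 2 of the 6 tested markers, CD24 higher and SPP1 lower, beside 5.6% of all genes. The count was 0 without replicate 1 or replicate 2 of the NT cells, and 1 without replicate 1 or replicate 2 of the NT-WNT3A cells. In these fits 400, 408, 1145 and 180 of the 24643 genes were called, against 1381 with every array. After control siRNA, limma called 0 of the 6 for Wnt3a, beside 2.11% of all genes. There 2 of the 6 had an unadjusted p under 0.05, as did 3460 of the 24643 genes. After β-catenin siRNA, limma called 0 of the 6 for Wnt3a, beside 0.0406% of all genes. Here 2 of the 6 had an unadjusted p under 0.05, as did 2575 of the 24643 genes. In the presence of FZD8_CRD, limma called 0 of the 6 for Wnt3a, beside 8.29% of all genes. In that comparison 1 of the 6 had an unadjusted p under 0.05, as did 5047 of the 24643 genes. Without replicate 3 of the FZ8CRD cells 3 of the 6 were called, beside 4916 of the 24643 genes, against 2044 with every array.

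β-Catenin siRNA against control siRNA called 1 of the 6 markers without Wnt3a, beside 10.6% of all genes, and 3 with Wnt3a, beside 10.6% of all genes. The second count was 1 without replicate 2 of the siCTRL-WNT3A cells, and also 1 without replicate 2 or replicate 3 of the siCTNNB1-WNT3A cells. In these fits 1859, 1681 and 1756 of the 24643 genes were called, against 2607 with every array. Control siRNA against no transfection called 1 marker without Wnt3a, beside 22.3% of all genes, and 1 with Wnt3a, beside 9.03%. The count with Wnt3a was 0 without replicate 1 or replicate 3 of the NT-WNT3A cells or replicate 2 of the siCTRL-WNT3A cells, and 2 without replicate 2 of the NT-WNT3A cells. Over all genes, 271, 1323, 348 and 4045 were called in these fits, against 2226 with every array. FZD8_CRD called 4 of the 6 markers without Wnt3a, beside 41.9% of all genes, and 5 of the 6 with Wnt3a, beside 37.2%. One of these 5 is CFTR, which passed the filter only through the conditions with FZD8_CRD, so that its place in the count was built in, and of the other 5 markers 4 were called. The count without Wnt3a was 2 without replicate 3 of the NT cells and 1 without replicate 3 of the FZ8CRD cells. Over all genes, 9850 and 10013 were called in these fits, against 10323 with every array. For the difference in Wnt3a response between the siRNAs, limma called 0 of the 6, beside 0.0162% of all genes. There 1 of the 6 had an unadjusted p under 0.05, as did 823 of the 24643 genes. For the difference in Wnt3a response with and without FZD8_CRD, limma called 0 of the 6, beside 0.073% of all genes. Here 0 of the 6 had an unadjusted p under 0.05, and 3131 of the 24643 genes did. The comparisons with NT share the NT arrays, those with siCTRL share the siCTRL arrays, and the same holds for the Wnt3a-treated controls, so that they are not independent of each other.

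**Figure D2:**
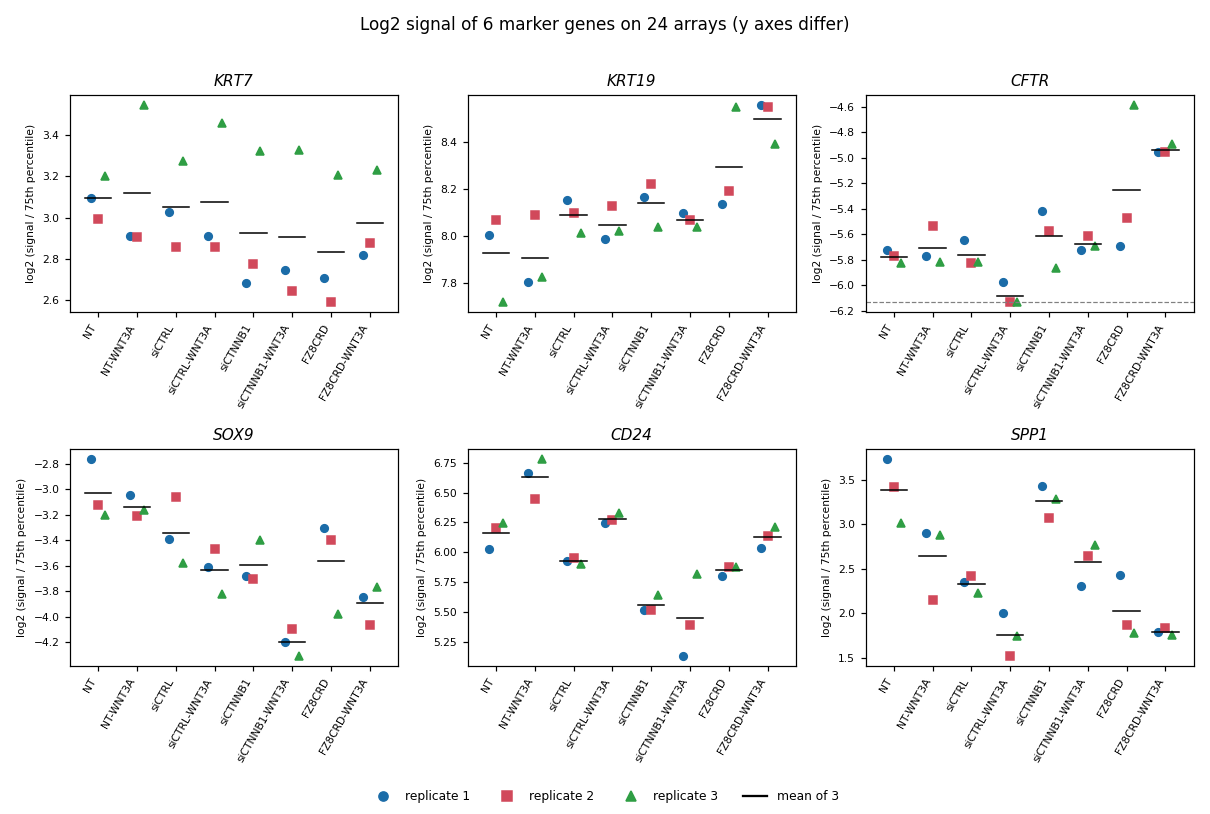
Log2 signal over the 75th percentile of the array for the 6 tested markers, 1 point per array by replicate, with the mean of 3 arrays as a bar and, for CFTR, the detection limit as a dashed line. KRT7 was highest on replicate 3 in all 8 conditions, KRT19 and CFTR were highest in FZ8CRD-WNT3A on average, CD24 was lowest with β-catenin siRNA, and SPP1 was highest in NT and siCTNNB1.

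KRT7 is a type II keratin of simple epithelia and ducts. Its log2 signal lay between 2.59 and 3.54 over the 24 arrays, a 1.93-fold range. The plainest pattern followed the replicate number, with replicate 3 the highest of the 3 arrays in 8 of 8 conditions, at a mean of 3.32 against 2.86 and 2.81 for the others. Slide, scan and culture share that number and cannot be told apart. From high to low, the condition means ran from NT-WNT3A (3.12) through NT, siCTRL-WNT3A, siCTRL, FZ8CRD-WNT3A, siCTNNB1 and siCTNNB1-WNT3A to FZ8CRD (2.83). No pair of neighbours in this order differed by more than the larger of their standard deviations. KRT7 was called in 0 of the 10 comparisons between conditions, and its log2 changes lay between -0.26 and 0.14. The lowest, -0.26, was the change with FZD8_CRD alone, with values of 2.71, 2.59 and 3.20 against 3.09, 2.99 and 3.20 in NT (adjusted p = 0.37). With the slide as a block in the model the same change had an adjusted p of 0.0163, and without replicate 3 of every condition it was -0.39 (adjusted p = 0.000854, the lowest of its 20 alternatives, which reached 0.714). The 3 genes most like KRT7 over the 24 arrays were SPRNP1 (Pearson r = 0.99), LRRC26 (0.97) and C8orf58 (0.97). The arrays share slides, and within single slides of 8 arrays these r lay between 0.82 and 0.97.

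KRT19, the smallest type I keratin and the most widely used duct marker, read between 7.72 and 8.56 on the log2 scale, a 1.79-fold range. In NT cells KRT19 read 8.0, 8.07 and 7.72, and in FZ8CRD cells 8.14, 8.19 and 8.55. The FZ8CRD arrays were all above the NT arrays, but replicates 1 and 2 by little, and the gap came mainly from replicate 3, the lowest NT array and the highest FZ8CRD array. KRT19 rose by 0.36 with FZD8_CRD alone (95% interval 0.14 to 0.58, adjusted p = 0.00865), higher in 3 of 3 same-slide pairs by 0.13, 0.12 and 0.83. It was 0.26 without replicate 3 of NT (adjusted p = 0.0633) and 0.23 without replicate 3 of FZ8CRD (adjusted p = 0.0675). When arrays were scaled to the spike-in probes it turned to -0.03 (adjusted p = 0.944), and over its alternatives the adjusted p ranged from 0.00331 to 0.944.

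With Wnt3a in both groups, KRT19 read 7.80, 8.09 and 7.83 in NT-WNT3A cells and 8.56, 8.55 and 8.39 in FZ8CRD-WNT3A cells. The 3 arrays with FZD8_CRD lay above the 3 without it on each slide. KRT19 rose by 0.59, or 1.51-fold (95% interval 0.37 to 0.81, adjusted p = 0.000195), by 0.75, 0.46 and 0.56 in the same-slide pairs. The change was 0.50 with spike-in scaling, where the adjusted p reached 0.253. For Wnt3a in the presence of FZD8_CRD, the KRT19 change was 0.21 (adjusted p = 0.281), and 0.34 without replicate 3 of FZ8CRD (0.0206). This change was called in only 2 of its 20 alternatives, and lay between 0.10 and 0.39 over them. In siCTRL cells KRT19 read 8.15, 8.10 and 8.01 and in siCTNNB1 cells 8.17, 8.22 and 8.04, which overlap. The log2 change with β-catenin siRNA was 0.05 (95% interval -0.17 to 0.27, adjusted p = 0.879) and with Wnt3a in both groups 0.02 (adjusted p = 0.96). From high to low the means ran FZ8CRD-WNT3A (8.50), FZ8CRD (8.29), siCTNNB1 (8.14), siCTRL (8.09), siCTNNB1-WNT3A (8.07), siCTRL-WNT3A (8.04), NT (7.93) and NT-WNT3A (7.91), and no neighbours differed beyond their spread. The gene most like KRT19 was KRT19P2, a pseudogene copy of it (r = 0.98 over 24 arrays), and whether both probes read the same RNA was not tested. HYI (0.93) and VTI1B (0.91) followed, with r between 0.84 and 0.97 within slides for these 2 genes.

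CFTR is the chloride channel through which cholangiocytes secrete into bile. In NT cells it read -5.72, -5.77 and -5.83, in NT-WNT3A cells -5.77, -5.53 and -5.82, and only 1 of the 3 arrays in each of these conditions was well above background. In siCTRL-WNT3A cells 2 of the 3 arrays were at the detection limit of -6.13 and the other read -5.97. These readings lie near the floor, and differences among them are differences near background. In FZ8CRD cells CFTR read -5.69, -5.47 and -4.59, and in FZ8CRD-WNT3A cells -4.96, -4.96 and -4.90. Those 2 conditions were the ones with all 3 arrays well above background, and through them alone CFTR passed the filter, so that a difference from the other conditions was built into its passing.

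For that reason no test of CFTR between conditions with and without FZD8_CRD is used, and a fold against conditions so near background would not be exact. Within FZ8CRD, replicate 3 stood apart from the other two for CFTR, as it did for KRT19. The order of means was FZ8CRD-WNT3A (-4.94), FZ8CRD (-5.25), siCTNNB1 (-5.62), siCTNNB1-WNT3A (-5.68), NT-WNT3A (-5.71), siCTRL (-5.76), NT (-5.77) and siCTRL-WNT3A (-6.08). SPECC1 (r = 0.89), CALHM5 (0.88) and FOXS1 (0.87) were most like CFTR over the 24 arrays, with r between 0.74 and 0.97 within slides.

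SOX9 is the transcription factor that marks the ductal plate, from which bile ducts form. It was dim, between -4.31 and -2.76 on the log2 scale, and well above background on every array. In siCTRL-WNT3A cells SOX9 read -3.61, -3.47 and -3.82, and in siCTNNB1-WNT3A cells -4.20, -4.10 and -4.31. All 3 arrays with β-catenin siRNA were below all 3 with control siRNA. SOX9 fell by 0.57 (95% interval -0.94 to -0.19, adjusted p = 0.0478), by -0.59, -0.62 and -0.49 in the same-slide pairs. The call was close to the threshold and was lost without replicate 1 (adjusted p = 0.116) or replicate 2 (0.175) of siCTRL-WNT3A, and without replicate 1 (0.0998), replicate 2 (0.0791) or replicate 3 (0.156) of siCTNNB1-WNT3A. Of its 20 alternatives 7 kept it, with adjusted p from 0.025 to 0.373 and log2 changes from -0.77 to -0.18. Without Wnt3a, SOX9 read -3.39, -3.06 and -3.58 in siCTRL cells and -3.68, -3.71 and -3.40 in siCTNNB1 cells. These overlap, and the log2 change was -0.25 (adjusted p = 0.466).

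In NT cells SOX9 read -2.76, -3.12 and -3.20, and in FZ8CRD cells -3.31, -3.40 and -3.98. The 2 groups did not overlap, with the highest NT array and the lowest FZ8CRD array farthest from the rest. SOX9 fell by 0.53 with FZD8_CRD alone (95% interval -0.91 to -0.16, adjusted p = 0.0216), lower on 3 of 3 slides. The adjusted p was 0.122 without replicate 1 of NT (log2 change -0.40) and 0.145 without replicate 3 of FZ8CRD (-0.32). It was 0.292 with quantile normalization (-0.27) and 0.159 with the deposited values (-0.32), and over the alternatives it lay between 0.0115 and 0.292. With Wnt3a in both groups, SOX9 read -3.04, -3.21 and -3.16 without FZD8_CRD and -3.84, -4.07 and -3.77 with it. That gap was wider than either group's range. SOX9 fell by 0.75 (95% interval -1.13 to -0.38, adjusted p = 0.00252), a 1.69-fold difference, lower on 3 of 3 slides, with adjusted p between 0.00117 and 0.107 over the alternatives. With normexp background the change was smaller, -0.38. Without replicate 1 of every condition it was -0.73 (adjusted p = 0.0661).

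For Wnt3a itself, the log2 change of SOX9 was -0.11 in untransfected cells (adjusted p = 0.838), -0.29 after control siRNA (0.549), -0.61 after β-catenin siRNA (0.243) and -0.33 with FZD8_CRD (0.326). The last of these was -0.54 without replicate 3 of FZ8CRD (adjusted p = 0.0324, the range over its alternatives being 0.0268 to 1). From high to low the means were NT (-3.03), NT-WNT3A (-3.14), siCTRL (-3.34), FZ8CRD (-3.56), siCTNNB1 (-3.60), siCTRL-WNT3A (-3.63), FZ8CRD-WNT3A (-3.89) and siCTNNB1-WNT3A (-4.20). The steps down to FZ8CRD-WNT3A and to siCTNNB1-WNT3A exceeded the spread, and the first 6 neighbours did not differ beyond it. CHI3L1 (r = 0.92), ACSS3 (0.92) and MSMO1 (0.91) were most like SOX9, with r between 0.86 and 0.99 within slides.

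CD24 is a small, heavily glycosylated surface protein used to sort progenitor cells from liver. Its gene has close copies elsewhere in the genome, and whether the probe also reads their RNA was not tested. In NT cells CD24 read 6.02, 6.21 and 6.25 on the log2 scale, and in NT-WNT3A cells 6.66, 6.45 and 6.78. Replicate 3 was the highest of the 3 arrays in 7 of 8 conditions, with means of 5.92, 5.98 and 6.10 for the 3 replicate numbers. Every NT-WNT3A array was above every NT array. CD24 rose by 0.47 with Wnt3a (1.39-fold, 95% interval 0.23 to 0.72, adjusted p = 0.0247), by 0.64, 0.24 and 0.53 in the same-slide pairs. The change was 0.40 without replicate 1 of NT (adjusted p = 0.121), 0.49 without replicate 2 of NT (0.0668) and 0.46 without replicate 1 of NT-WNT3A (0.0563). It was 0.08 with spike-in scaling (adjusted p = 0.814, the highest of its alternatives, the lowest being 0.00621).

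After control siRNA CD24 read 5.93, 5.95 and 5.90 without Wnt3a and 6.24, 6.27 and 6.33 with it. The groups were tight and separate, and the log2 change of 0.35 had an adjusted p of 0.129. With the slide as a block it was called (adjusted p = 0.0441), and over the alternatives the adjusted p lay between 0.0126 and 0.921. After β-catenin siRNA CD24 read 5.52, 5.51 and 5.64 without Wnt3a and 5.13, 5.39 and 5.82 with it. The Wnt3a-treated arrays spread around the untreated ones, and the log2 change was -0.11 (95% interval -0.36 to 0.13, adjusted p = 0.862). The difference in response between the siRNAs was tested directly: it was -0.47 (95% interval -0.81 to -0.12, unadjusted p = 0.0111 from limma), with an adjusted p of 1 over all genes. It was negative on 3 of 3 slides. With FZD8_CRD the Wnt3a change of CD24 was 0.27 (adjusted p = 0.176), from 5.80, 5.88 and 5.88 to 6.04, 6.13 and 6.21.

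Set side by side with Wnt3a present, the siCTRL-WNT3A and siCTNNB1-WNT3A readings above do not overlap. CD24 fell by 0.83 with β-catenin siRNA, 1.78-fold (95% interval -1.08 to -0.59, adjusted p = 7.62e-05), by -1.11, -0.88 and -0.51 in the same-slide pairs, and was called in 20 of 20 alternatives (adjusted p between 1.62e-06 and 0.0349). Without Wnt3a the log2 change was -0.37 (adjusted p = 0.0501), lower on 3 of 3 slides. That value missed the threshold by little, and with the slide as a block the adjusted p was 0.0135. The change was called in only 5 of its 20 alternatives, and lay between -0.42 and -0.28 over them. With FZD8_CRD, CD24 fell by 0.31 without Wnt3a (adjusted p = 0.042) and by 0.50 with it (adjusted p = 0.00215), on 3 of 3 slides each. The first call was lost without replicate 1 (adjusted p = 0.106), replicate 2 (0.0747) or replicate 3 (0.0643) of FZ8CRD and without replicate 2 (0.105) or replicate 3 (0.128) of NT, within a range of 0.0123 to 0.243 over the alternatives. The size of the first change lay between -0.70, with spike-in scaling, and -0.26. The size of the second lay between -0.596 and -0.425. Its adjusted p lay between 0.000367 and 0.139, with the highest value under spike-in scaling. The means ran from NT-WNT3A (6.63) through siCTRL-WNT3A (6.28), NT (6.16), FZ8CRD-WNT3A (6.13), siCTRL (5.93), FZ8CRD (5.85) and siCTNNB1 (5.56) to siCTNNB1-WNT3A (5.45). NT and FZ8CRD-WNT3A, and the last 2 conditions, did not differ beyond their spread, and the other 5 steps exceeded it. Control siRNA gave CD24 changes of -0.23 without Wnt3a (adjusted p = 0.176) and -0.35 with it (adjusted p = 0.0691). With the slide as a block the second had an adjusted p of 0.021, without replicate 2 of NT-WNT3A it was -0.44 (adjusted p = 0.0205), and the range over its alternatives was 0.0205 to 0.895.

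The gene most like CD24 over the 24 arrays was MMP7 (r = 0.93), a secreted metalloproteinase of ducts and glands, followed by CLDN2 (0.93) and PRUNE2 (0.91), with r between 0.85 and 0.97 within slides. The promoters of CD24, MMP7 and SPP1, which all passed the test for β-catenin siRNA in the presence of Wnt3a, are shown. Each runs from 250 bases before to 50 after the RefSeq gene start (GRCh38.p14), 5′ to 3′ on the gene's strand. Capitals mark the TCF/LEF motif, searched as CTTTGAA or CTTTGAT on both strands, and a sequence with no capitals holds none.
CD24, chr6:106975578-106975877, minus strand: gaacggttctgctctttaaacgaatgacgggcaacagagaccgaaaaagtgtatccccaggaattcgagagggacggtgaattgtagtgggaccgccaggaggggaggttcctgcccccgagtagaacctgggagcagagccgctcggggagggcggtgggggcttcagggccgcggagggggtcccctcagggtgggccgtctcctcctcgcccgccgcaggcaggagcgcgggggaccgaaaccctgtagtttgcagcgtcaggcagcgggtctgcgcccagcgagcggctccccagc
MMP7, chr11:102530698-102530997, minus strand: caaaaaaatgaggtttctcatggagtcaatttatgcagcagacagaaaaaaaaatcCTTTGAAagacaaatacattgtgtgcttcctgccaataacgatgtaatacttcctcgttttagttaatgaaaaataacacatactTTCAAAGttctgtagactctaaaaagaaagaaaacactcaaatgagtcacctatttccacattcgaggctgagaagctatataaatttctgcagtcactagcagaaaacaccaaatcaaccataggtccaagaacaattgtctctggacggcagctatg
SPP1, chr4:87975464-87975763, plus strand: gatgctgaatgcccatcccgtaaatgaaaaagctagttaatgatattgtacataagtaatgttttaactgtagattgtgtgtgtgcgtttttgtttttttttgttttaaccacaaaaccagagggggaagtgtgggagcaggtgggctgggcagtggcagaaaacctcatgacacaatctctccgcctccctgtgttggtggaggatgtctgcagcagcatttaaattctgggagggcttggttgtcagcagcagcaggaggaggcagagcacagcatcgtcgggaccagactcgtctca
The MMP7 window holds CTTTGAA 2 times, beginning 194 bases before the start on the gene's strand and 109 bases before it on the other strand. Of the 35116 promoters in the table, 2409 (6.86%) hold the motif in the same window. Of the 26 further biliary genes read below, 20 had a promoter in the table, and MMP7 was the only 1 with the motif. Of the 9 markers, CD24, SPP1, CFTR and PROM1 had a promoter in the table, and 0 of these 4 held the motif. A match describes letters only, and the absence of a match says only that these letters are not in this window.

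SPP1 encodes osteopontin, a secreted matrix protein made by bile duct cells and by several other cell types. It covered the widest range of the 6 markers, from 1.52 to 3.73 on the log2 scale, 4.64-fold, and was read from 10 spots per array. In NT cells SPP1 read 3.73, 3.42 and 3.01, and in NT-WNT3A cells 2.90, 2.15 and 2.88. The NT arrays were all higher, replicate 3 by little. SPP1 fell by 0.74 with Wnt3a, 1.67-fold (95% interval -1.17 to -0.32, adjusted p = 0.0387), by -0.83, -1.27 and -0.14 in the same-slide pairs. The change was -0.57 without replicate 1 of NT (adjusted p = 0.197), -0.73 without replicate 2 of NT (0.119) and -0.50 without replicate 2 of NT-WNT3A (0.309), and the adjusted p over its alternatives ranged from 0.0102 to 0.946. In these bulk samples, fewer cells of a type and less RNA per cell cannot be told apart.

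After control siRNA SPP1 read 2.35, 2.42 and 2.22 without Wnt3a and 2.00, 1.52 and 1.74 with it. After β-catenin siRNA it read 3.43, 3.07 and 3.29 without Wnt3a and 2.31, 2.65 and 2.76 with it. The Wnt3a-treated arrays were below the untreated ones in both cases, with log2 changes of -0.58 (adjusted p = 0.161) and -0.69 (adjusted p = 0.245), neither of which passed. The difference between these 2 responses was -0.11 (95% interval -0.71 to 0.49, adjusted p = 1). With FZD8_CRD, SPP1 read 2.43, 1.87 and 1.78 without Wnt3a and 1.79, 1.83 and 1.76 with it. These overlap, and the log2 change was -0.23 (adjusted p = 0.643). The difference between the Wnt3a responses with and without FZD8_CRD was 0.52 (95% interval -0.09 to 1.12, adjusted p = 0.497).

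Against control siRNA, β-catenin siRNA raised SPP1 by 0.93 without Wnt3a, 1.91-fold (95% interval 0.50 to 1.36, adjusted p = 0.00542), by 1.08, 0.65 and 1.06 in the same-slide pairs. With Wnt3a in both groups it rose by 0.82, 1.77-fold (95% interval 0.39 to 1.25, adjusted p = 0.0115), by 0.31, 1.13 and 1.02. The arrays of the 2 siRNAs did not overlap in either setting. Without Wnt3a, leaving out replicate 1, 2 or 3 of every condition gave changes of 0.86, 1.07 and 0.86 with adjusted p of 0.0602, 0.0504 and 0.0539, within a range of 0.00233 to 0.135 over the alternatives. With Wnt3a, the adjusted p was 0.0683 without replicate 2 of siCTRL-WNT3A, and 0.0504 and 0.0633 without replicate 2 or replicate 3 of siCTNNB1-WNT3A, within a range of 0.00538 to 0.464. CD24 and SPP1 thus moved in opposite directions with β-catenin siRNA in the presence of Wnt3a.

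With control siRNA against no transfection, SPP1 fell by 1.06 without Wnt3a (2.08-fold, adjusted p = 0.00107) and by 0.89 with it (1.85-fold, adjusted p = 0.0116), on 3 of 3 slides each. The siCTNNB1 readings, 3.07 to 3.43, lay inside the NT range of 3.01 to 3.73, and the siCTRL readings below it. The first call was lost without replicate 1 of every condition (-0.89, adjusted p = 0.0563, the highest of its alternatives). The second was lost without replicate 1 (adjusted p = 0.0917) or replicate 3 (0.0518) of NT-WNT3A and without replicate 2 of siCTRL-WNT3A (0.0815), within a range of 0.000658 to 0.395. With FZD8_CRD, SPP1 fell by 1.37 without Wnt3a, 2.58-fold (95% interval -1.79 to -0.94, adjusted p = 2.59e-05), and by 0.85 with it, 1.80-fold (95% interval -1.28 to -0.42, adjusted p = 0.0027), on 3 of 3 slides each. Both calls held in 20 of 20 alternatives, with adjusted p of at most 0.00797 and 0.0446. The means ran NT (3.39), siCTNNB1 (3.26), NT-WNT3A (2.64), siCTNNB1-WNT3A (2.57), siCTRL (2.33), FZ8CRD (2.02), FZ8CRD-WNT3A (1.80) and siCTRL-WNT3A (1.75). The steps from siCTNNB1 to NT-WNT3A and from siCTNNB1-WNT3A to siCTRL exceeded the spread, and the other 5 did not. TMEM37, GBA3 and ASB13 were most like SPP1 (r = 0.97 each over 24 arrays, and 0.96 to 0.99 within slides).

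**Figure D3:**
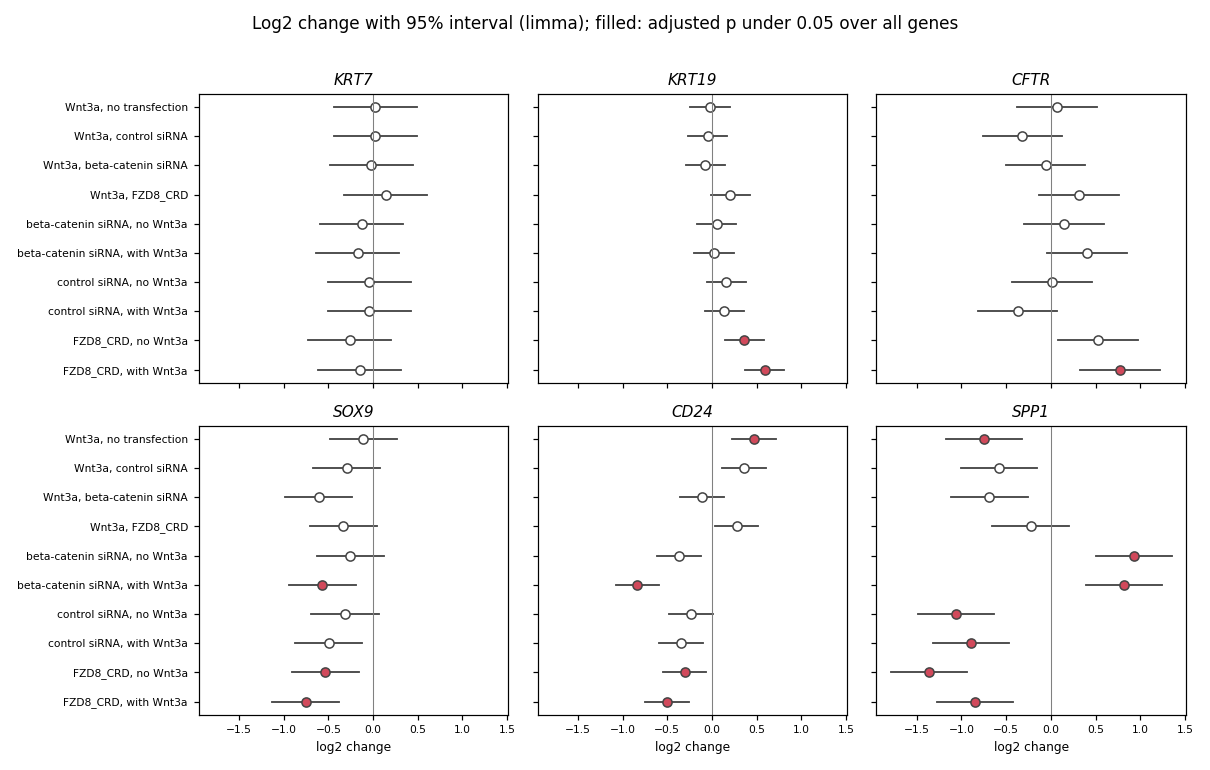
Log2 change with its 95% interval from limma for 6 markers in 10 comparisons, filled where the adjusted p over all genes was under 0.05. KRT7 has no filled point, KRT19 has its filled points with FZD8_CRD, on the higher side, the filled CFTR point follows from how CFTR passed the filter, and SPP1 is filled in 7 comparisons, higher with β-catenin siRNA and lower in the other 5.

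Hepatocyte genes were read beside SPP1. Of 20 hepatocyte genes, 16 were tested, and CYP2E1, PCK1, G6PC1 and ARG1 did not pass the filter. Their summed signal, in multiples of the 75th percentile, was 2270, 1630 and 1100 in NT and 1350, 577 and 1350 in NT-WNT3A. It was 582, 556 and 540 in siCTRL, 377, 263 and 377 in siCTRL-WNT3A, and 541, 352 and 490 in FZ8CRD. The 3 NT arrays and replicates 1 and 3 of NT-WNT3A had the highest sums of the 24 arrays, and replicate 2 of NT-WNT3A lay among the others. In siCTNNB1 the sum was 911, 632 and 826, in siCTNNB1-WNT3A 360, 513 and 666, and in FZ8CRD-WNT3A 501, 501 and 493. ALB had the highest signal of the list in every condition but siCTRL-WNT3A, where it was SERPINA1. Control siRNA lowered 14 of the 16 without Wnt3a and 9 with it, FZD8_CRD lowered 15 and 11, and 0 rose in these comparisons, where 22.3%, 9.03%, 41.9% and 37.2% of all genes were called. The median log2 changes were -1.75, -1.39, -2.15 and -1.35, against -0.03, -0.02, -0.09 and -0.08 over all genes in the 4 comparisons. With β-catenin siRNA 1 of the 16 rose without Wnt3a and 3 with it, ALB among the 3, and 0 fell, beside 10.6% of all genes called in each, with medians of 0.64 and 0.49. For Wnt3a in untransfected cells, where SPP1 fell, limma called 0 of the 16, beside 5.6% of all genes, with a median of -0.79 against 0.01 over all genes. The part of these shifts in the SPP1 result was not tested.

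**Figure D4:**
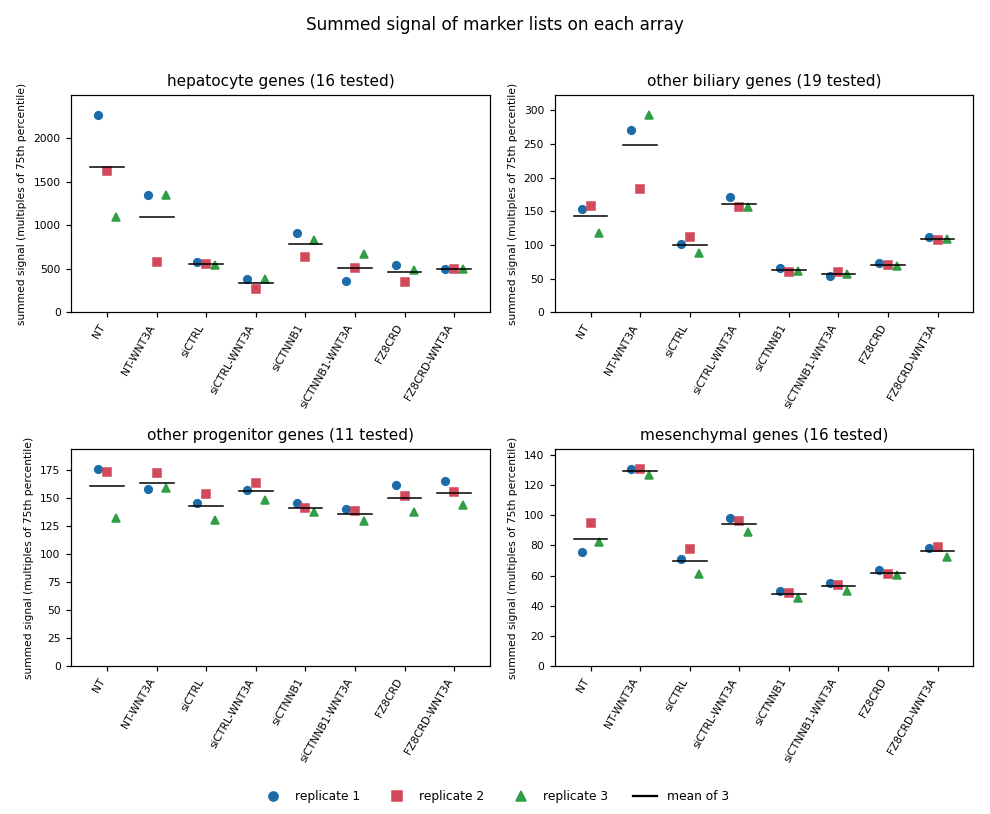
Summed signal, in multiples of the 75th percentile of the array, of 4 fixed lists of genes on 24 arrays, by condition and replicate, with the mean of 3 as a bar. The hepatocyte sum was highest in NT, and the biliary and mesenchymal sums were highest in NT-WNT3A and low with β-catenin siRNA.

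Other genes of bile duct and progenitor cells were read for comparison. Of 26 further biliary genes, GGT1 had no matched probe and 19 were tested. SCTR, SLC5A1, CLDN10, DCDC2 and PKHD1 were among those that did not pass the filter. MMP7 rose with Wnt3a in untransfected cells by 1.44, after control siRNA by 1.55 and with FZD8_CRD by 2.21, and fell by -3.81 with β-catenin siRNA in the presence of Wnt3a (adjusted p = 1.78e-08). The list's summed signal was 153, 158 and 117 in NT, 271, 183 and 293 in NT-WNT3A, and 54.1, 60.3 and 57.4 in siCTNNB1-WNT3A. MMP7 had the highest signal of the list in NT and NT-WNT3A, and ANXA4 in siCTNNB1-WNT3A. For Wnt3a in untransfected cells MMP7 was the only 1 of the 19 that rose, beside 5.6% of all genes called, with a median of 0.04 against 0.01 over all genes. VTCN1 was called lower there and with control siRNA or FZD8_CRD without Wnt3a, but it passed the filter only through NT and siCTNNB1, so that these calls were built in. With β-catenin siRNA in the presence of Wnt3a, 2 of the 19 rose (HEY1 and ONECUT1) and 6 fell, among them DEFB1 by -1.88 and MUC1 by -0.93, with a median of -0.18 against -0.01 over all genes. Without Wnt3a, 4 rose and 7 fell, and 10.6% of all genes were called in either setting. Control siRNA lowered 8 of the 19 and raised 2 without Wnt3a, beside 22.3% of all genes called, and ONECUT1, a transcription factor shared by hepatocytes and early bile ducts, fell by -2.94. With FZD8_CRD 5 rose and 8 fell without Wnt3a, beside 41.9% of all genes called, and 5 rose and 6 fell with it, beside 37.2%. In the presence of Wnt3a the 5 that rose included HEY1 by 1.66, JAG1 by 1.22, HES1 by 0.75 and NOTCH2 by 0.43, and ONECUT1 fell by -4.45.

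Of 15 further progenitor genes 11 were tested, and LGR5, THY1, KIT and SALL4 did not pass the filter. Wnt3a raised 3 of the 11 in untransfected cells (NCAM1 by 0.71, LIN28B by 0.55 and CD44 by 0.27, the last turning to -0.13 with spike-in scaling) and 0 fell, beside 5.6% of all genes called, with a median of 0.12 against 0.01 over all genes. AFP, the fetal counterpart of albumin, rose with FZD8_CRD by 1.01 without Wnt3a and by 1.45 with it. In these comparisons 4 of the 11 rose and 2 fell without Wnt3a, beside 41.9% of all genes called, and 4 rose and 1 fell with it, beside 37.2%. With β-catenin siRNA in the presence of Wnt3a 3 of the 11 fell (ICAM1, ALDH1A1 and LIN28B) and 0 rose, beside 10.6% of all genes called. Of 16 mesenchymal genes, all tested, 10 rose with Wnt3a in untransfected cells (ACTA2 turning to -0.08 with spike-in scaling) and 0 fell, beside 5.6% of all genes called, and with β-catenin siRNA in the presence of Wnt3a 10 fell and 1 rose, beside 10.6%. Their summed signal was 75.8, 95 and 82.6 in NT and 131, 131 and 127 in NT-WNT3A, with DCN the highest gene. Of 11 further epithelial genes 9 were tested, and 3 fell (ESRP2, OCLN and CLDN1) and 1 rose (TJP1) with Wnt3a in untransfected cells, beside the same 5.6%. CD24 was highest in the condition where the mesenchymal sum was highest, and the part of that shift in the CD24 result was not tested.

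Scaling to the 7 spike-in probes, RNA added in fixed amounts, moved the median change of all genes from 0.01 to -0.37 for Wnt3a in untransfected cells and from 0.02 to 0.18 after control siRNA. For β-catenin siRNA with Wnt3a it moved from -0.01 to -0.21, for control siRNA from -0.03 to -0.31 without Wnt3a and from -0.02 to 0.25 with it, and for FZD8_CRD from -0.09 to -0.47 without Wnt3a. The KRT19 change with FZD8_CRD alone turned to -0.03. The other called changes of the 6 markers kept their sign with spike-in scaling and with quantile normalization.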

How the data were processed

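Per the file headers, the deposited scanner files hold linear spot intensity from Agilent Feature Extraction, with background taken off and spatial trend removed, and not normalized between arrays. The labels name version 10.7.3.1 of that software. The authors also deposited log2 values for 25443 probes, relative to the 75th percentile of the array and centred on each probe's median, used here as an alternative. Spots marked as outliers were left out, repeated spots were averaged, and each intensity was divided by the 75th percentile of the non-control spots of its array. The detection limit was found on each array as the smallest scaled signal still well above background, the median of these was used, and smaller values were set to it. A probe was kept if some condition had it well above background in each of its 3 replicates (31061 probes), and a gene was read from its brightest kept probe by mean log2 signal (24643 genes, 15997 with a symbol). RefSeq transcripts gave the symbols.

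The 8 condition means were fitted jointly to the 24 arrays in R 4.3.3 by limma 3.58.1, using lmFit, contrasts.fit and a trended eBayes, two-sided, with Benjamini-Hochberg adjustment over all genes in each comparison. The fit left the replicate number out, and an alternative used it as a block. Likeness between genes is Pearson's r of log2 signal over 24 arrays among genes with a symbol, with no test. In the order of conditions, neighbours were compared by the difference of their means against the larger of their 2 standard deviations. All 9 markers are described, and of the other lists the counts and at most 5 called genes per comparison. The markers, the lists and the promoter motif were chosen with earlier results of these data known. Alternatives were quantile normalization, spike-in scaling, normexp background (offset 50, on the median signal), the deposited values, no filter, a filter asking for signal on every array, probes averaged per gene, a floor at 1 intensity unit, marked spots kept, the replicate block, only the conditions compared, the study's thresholds (unadjusted p under 0.01 with a fold above 1.5 or below 0.7), and leaving out each replicate number or each array. Python 3.11.15 and matplotlib 3.10.9 made the figures.

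Each condition had 3 arrays from 1 cell line at 1 time and 1 dose, so that small changes can be missed, and a gene not called is not shown to be unchanged. The arrays measure RNA, and the data used here hold no protein measurement. Each condition held 1 position on every slide. Scaling to the 75th percentile cannot see a change in total RNA, and the spike-in probes also carry the error of their addition. KRT23, PROM1 and EPCAM were too dim to test. The share of bile duct-like and hepatocyte-like cells in each culture was not measured.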

Additional observations from a re-analysis of the deposited data

Results flagged for a closer look

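RNF43, a cell-surface ligase that removes Frizzled receptors and is switched on by Wnt signaling, responded differently to Wnt3a after the 2 siRNAs. It rose by 1.02 after control siRNA, and its change after β-catenin siRNA was -0.21. The difference of -1.23 had an adjusted p of 0.00129 (limma). It was called in 23 of 26 alternatives, with adjusted p from 0.000319 to 0.736, and not with spike-in scaling (0.576), without replicate 1 (0.331) or without replicate 2 (0.736) of every condition. It is 1 of the 9 feedback genes tested and was read here as a check of the knockdown.

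LUM, a matrix proteoglycan of fibroblasts and 1 of the 16 mesenchymal genes, responded differently to Wnt3a with and without FZD8_CRD. It rose by 1.04 in untransfected cells, and its change with FZD8_CRD was -0.39. The difference of -1.42 had an adjusted p of 0.0469 (limma), close to the threshold. It was called in 8 of 26 alternatives, with adjusted p from 2.4e-06 without replicate 3 of FZ8CRD to 1 without replicate 1 or replicate 2 of every condition. Leaving out any 1 array of replicate 1 or replicate 2, or replicate 3 of FZ8CRD-WNT3A, ended the call. None of the 6 tested markers showed such a difference at an adjusted p under 0.05 in the main fit. For KRT19 the difference was 0.23 (adjusted p = 0.589). Without replicate 3 of every condition it was 0.48 (adjusted p = 0.0249), where 2986 of 24643 genes were called.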

How the results depend on the processing

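The main analysis tested 6 of the 9 markers. The deposited values and the filter on every array left out CFTR and tested 5, and no filter tested 9. The number of markers called for Wnt3a in untransfected cells, 2, was 1 with the study's thresholds and 0 with spike-in scaling, without the filter, or with only the conditions compared. Over all genes, these last settings called 288 of 24643, 848 of 41258 and 2 of 24643, against 1381 in the main fit. After control siRNA, 0 became 1 with the replicate block and 1 with only the conditions compared. Of 24643 genes 1075 and 1328 were called there, against 520 in the main fit. After β-catenin siRNA, 0 became 2 with the study's thresholds. For the study's thresholds the calls over all genes were not counted, so these marker counts have no share beside them. Leaving out a replicate number or an array gave 0 to 2 for Wnt3a in untransfected cells and 0 to 3 with FZD8_CRD. Over all genes the calls ran from 6 to 6343 and from 0 to 5326.

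For β-catenin siRNA without Wnt3a, 1 became 0 with spike-in scaling, and 2 with the filter on every array, the floor at 1 intensity unit, the replicate block, or only the conditions compared. Of 24643 genes the main fit called 2605, spike-in scaling 179, the floor 2602, the replicate block 4094 and only the conditions compared 4322. The filter on every array called 2547 of 21121. With Wnt3a, 3 became 1 with spike-in scaling, and 2 with quantile normalization, normexp background, the deposited values, no filter or only the conditions compared. Of 24643 genes the main fit called 2607, spike-in scaling 647, quantile normalization 2563, normexp background 2104 and only the conditions compared 2238. The deposited values called 2585 of 20052 and no filter 2342 of 41258. For control siRNA with Wnt3a, 1 became 0 with spike-in scaling or only the conditions compared, and 2 with the replicate block. Of 24643 genes these settings called 216, 1 and 3757, against 2226 in the main fit. Leaving out arrays gave 0 to 1 and 1 to 3 for β-catenin siRNA, and 0 to 1 and 0 to 2 for control siRNA, without and with Wnt3a. In the same order, calls over all genes ran 476 to 2375, 588 to 2645, 235 to 6877 and 1 to 4045.

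For FZD8_CRD without Wnt3a, 4 became 2 with the study's thresholds or only the conditions compared, 3 with quantile normalization, spike-in scaling, the deposited values or no filter, 5 with marked spots kept and 6 with the replicate block. CFTR, which passed the filter only through the conditions with FZD8_CRD, is 1 of those 5, 1 of those 6 and 1 of the 3 called with quantile normalization, where CD24 and SOX9 were lost. It is also 1 of the 4 called without replicate 1 or replicate 2 of FZ8CRD. Over all 24643 genes the main fit called 10323, only the conditions compared 6388, quantile normalization 9919 and spike-in scaling 7381. Marked spots kept called 10303 and the replicate block 13151. The deposited values called 9469 of 20052 and no filter 9493 of 41258. With Wnt3a, 5 became 1 with spike-in scaling, and 4 with the study's thresholds, normexp background, the deposited values or the filter on every array. In the last 2, CFTR was not tested and the other 4 stayed called, and with normexp background the lost call was that of CFTR. Over all 24643 genes the main fit called 9163, spike-in scaling 2328 and normexp background 8523. The deposited values called 8629 of 20052 and the filter on every array 8613 of 21121. With the study's thresholds, the calls over all genes were not counted, either without or with Wnt3a. Leaving out arrays gave 1 to 4 without Wnt3a, 3 to 5 with it, and 0 to 1 for the difference between the Wnt3a responses. Over all genes the calls ran from 6214 to 11234, from 4109 to 10122 and from 0 to 2986. The KRT19 change with FZD8_CRD alone turned to -0.0278 with spike-in scaling.

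The cause of the other changes in these counts was not tested. CD24 with β-catenin siRNA and Wnt3a, and SPP1 with FZD8_CRD in both settings, were called in 20 of 20 alternatives. CFTR read near the detection limit, and SOX9 was dim but well above background on every array. With normexp background SOX9 was not called with β-catenin siRNA and Wnt3a, at -0.18 (adjusted p = 0.373, between 0.025 and 0.373). That call was also lost with quantile normalization (0.132) and the deposited values (0.0796), and the cause was not tested.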

Other observations

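Replicate 1 of the NT cells held the highest reading of several markers among the 24 arrays: SPP1 at 3.73, SOX9 at -2.76 and EPCAM at -2.87 on the log2 scale, the first KRT23 probe at 1.85% of the 75th percentile, and the hepatocyte sum at 2270. KRT19 on that array read 8.0 and CD24 6.02, inside the range of the other arrays. No explanation was tested.

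The second CTNNB1 probe read between -2.77 and -2.51 in the 6 arrays with β-catenin siRNA, and between 0.64 and 1.34 in the 18 others, the same split as the first.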
